A study of Mus musculus with 3 samples.

Results

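A set of 10 inflammatory genes of ST2 cells was examined across 3 transfections. They were the acute phase genes Saa3 and Lcn2, the chemokine genes Ccl2, Ccl5, Ccl7, Ccl20, Cxcl1, Cxcl5 and Cxcl10, and the cytokine gene Il6. They are 10 of 51826 rows in the deposited expression table, each on 1 row matched by gene name, and they were chosen on their FPKM in the NELL2 overexpression library, which was higher than in the control for all 10. FPKM is the number of fragments scaled to transcript length and to the total of the library. Differences between these libraries are therefore a description of genes already known to be higher, and no test was made on them.

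ST2 is a stromal line from mouse bone marrow with the capacity to form bone and fat cells, and it was grown in medium with serum. Control cells received empty vector with control siRNA, NELL2 overexpression cells received a NELL2 expression construct with control siRNA, and Fn1 knockdown cells received empty vector with siRNA against Fn1. The siRNA was used at 30 nM, and all 3 groups thus carried a plasmid, an siRNA and the same lipid reagent. There was 1 library of polyadenylated RNA in each group, so no value has a replicate check. NELL2 is a secreted protein with EGF-like repeats, and Fn1 encodes fibronectin, a protein of the extracellular matrix. The time from transfection to harvest is not given in the sources used here. The comparisons address which genes respond to more NELL2 or to less fibronectin.

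Nell2 was at 0.640, 326 and 1.06 FPKM in the libraries of control, NELL2-overexpressing and Fn1-depleted cells, and Fn1 at 2802, 2489 and 137 FPKM. Each library held an estimated 23000000 to 24200000 fragments, read from the smallest steps in the FPKM values. With this depth, the number of fragments of each gene was estimated from the shortest of its coding transcripts, which gives the lowest number and the widest interval. Intervals are exact 95% Poisson intervals for a level and exact 95% binomial intervals for a ratio. They cover counting error only, and the spread between cultures was not measured.

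Serum amyloid A proteins and lipocalin 2 are secreted during the acute phase response, the early reaction to infection or injury. Chemokines are small secreted proteins that attract leukocytes. CC chemokines such as CCL2, CCL5, CCL7 and CCL20 mainly draw monocytes and lymphocytes, CXCL1 and CXCL5 draw neutrophils, and CXCL10 is induced by interferon and draws activated T cells. In stromal cells these genes and Il6 are well known to respond to interleukin 1, tumour necrosis factor and endotoxin through the transcription factor NF-kB, often together with C/EBP proteins.

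Promoter sequences were found for 6 of the 10 genes in RefSeq (GRCm38.p6), namely Saa3, Lcn2, Ccl20, Cxcl1, Cxcl10 and Il6. No promoter is shown for Ccl2, Ccl5, Ccl7 and Cxcl5. The 250 bases before the start site were searched on both strands for the 10-base NF-kB consensus, for the C/EBP motif TTGCNNAA (TTNNGCAA on the other strand), for the AP-1 motif TGANTCA and for the interferon response motif GAAANNGAA (TTCNNTTTC on the other strand). The windows of 4 genes are shown, for the genes with the largest (Saa3) and smallest (Il6) log2 ratio upon NELL2 overexpression, and for 2 chemokines (Cxcl1 and Cxcl10). They lie at chr7:46715677-46715926 on the minus strand for Saa3, chr5:90890995-90891244 on the plus strand for Cxcl1, chr5:92348890-92349139 on the minus strand for Cxcl10 and chr5:30012864-30013113 on the plus strand for Il6. Each reads 5′ to 3′ and ends at the base before the start site, and capitals mark the matches.
Saa3: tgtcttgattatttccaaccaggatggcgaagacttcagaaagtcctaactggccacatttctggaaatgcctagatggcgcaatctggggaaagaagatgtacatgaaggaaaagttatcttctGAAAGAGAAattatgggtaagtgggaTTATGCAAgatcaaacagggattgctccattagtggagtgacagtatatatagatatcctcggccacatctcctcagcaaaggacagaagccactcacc
Cxcl1: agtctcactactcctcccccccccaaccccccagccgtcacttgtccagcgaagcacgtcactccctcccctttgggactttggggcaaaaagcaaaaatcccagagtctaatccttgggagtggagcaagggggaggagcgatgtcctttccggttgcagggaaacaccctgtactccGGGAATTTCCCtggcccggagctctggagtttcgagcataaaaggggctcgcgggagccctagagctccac
Cxcl10: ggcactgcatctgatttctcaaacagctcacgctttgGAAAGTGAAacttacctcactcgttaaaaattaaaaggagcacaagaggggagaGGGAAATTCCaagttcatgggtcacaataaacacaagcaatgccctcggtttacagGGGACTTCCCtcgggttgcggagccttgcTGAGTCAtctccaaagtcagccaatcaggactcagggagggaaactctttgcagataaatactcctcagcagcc
Il6: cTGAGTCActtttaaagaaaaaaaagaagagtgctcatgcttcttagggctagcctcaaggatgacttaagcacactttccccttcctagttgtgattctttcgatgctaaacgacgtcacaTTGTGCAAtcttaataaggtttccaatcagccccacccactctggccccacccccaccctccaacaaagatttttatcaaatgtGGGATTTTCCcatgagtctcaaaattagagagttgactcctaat

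The NF-kB consensus was matched in 4 of the 6 promoters, those of Ccl20, Cxcl1, Cxcl10 and Il6. Among all 32851 promoter windows of the same length, 3.90% held a match. Cxcl1 had the overlapping matches GGGAATTTCC and GGAATTTCCC, which begin 71 and 70 bases before the start site and share all but 1 base. Cxcl10 had GGGAAATTCC and GGGACTTCCC at 159 and 103 bases, Il6 had GGGATTTTCC at 44 bases, and Ccl20 had GGAAAACCCC at 80 bases. The windows of Saa3 and Lcn2 held no match to this consensus. They held C/EBP matches, TTATGCAA at 99 bases in Saa3 and TTGCTCAA at 216 bases in Lcn2, as did Il6 with TTGTGCAA at 128 bases, against 9.56% of all windows. The AP-1 letters TGAGTCA stood in Cxcl10 and Il6 (6.75% of all windows), and the interferon response letters in Cxcl10 (GAAAGTGAA) and Saa3 (GAAAGAGAA, 7.13% of all windows). A match describes these letters only, and binding was not measured. Il6 and Cxcl10 each held matches to 3 of the 4 motifs.

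The most abundant of the 10 genes were chemokines. In the control, Ccl2 was highest, followed by Ccl5, Ccl7, Cxcl10, Cxcl5, Cxcl1, Il6, Saa3 and Ccl20, and Lcn2 was listed at 0. FPKM is per transcript length, so these levels can be set side by side. The counting intervals of Cxcl1, Il6 and Saa3 overlapped in the control, with bounds of 2.86 to 4.50, 2.37 to 4.26 and 1.59 to 3.36 FPKM. The first 5 genes kept their order in the NELL2 overexpression library, where Saa3 moved ahead of Cxcl1 and Il6. In the Fn1 knockdown library, Ccl7 stood above Ccl5, and Saa3 stood below Cxcl1 and Il6 as in the control. Il6 stood above Cxcl1 there, with overlapping intervals of 2.58 to 4.48 and 2.29 to 3.74 FPKM. Summed over the 10 genes, FPKM was 493 in the control, 841 upon NELL2 overexpression and 408 upon Fn1 knockdown, or 0.124%, 0.211% and 0.103% of all FPKM. Ccl2, Ccl5 and Ccl7 made up 265 of the 348 FPKM by which the NELL2 overexpression library exceeded the control.

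**Figure D1:**
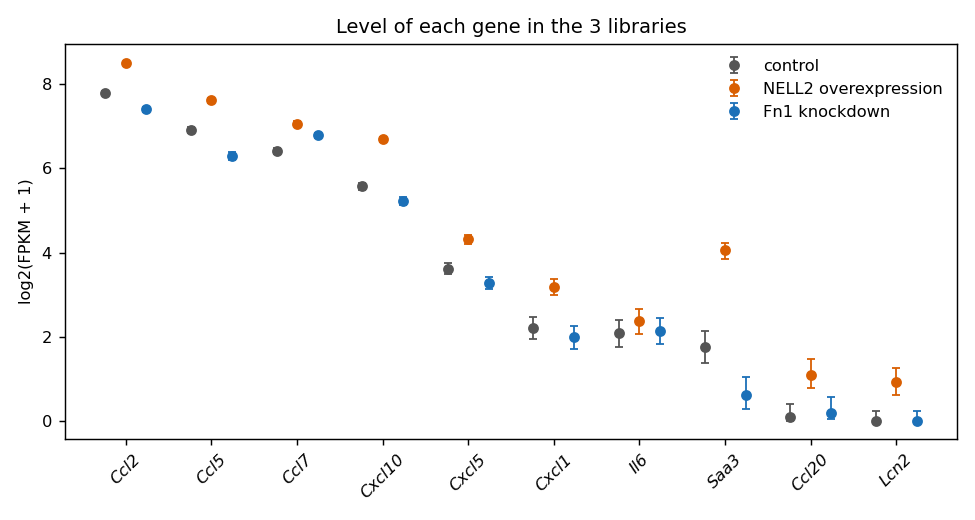
Level of each gene as log2(FPKM + 1) in the libraries of control, NELL2-overexpressing and Fn1-depleted cells, 1 point per library, with bars for the 95% counting interval from estimated fragments. The NELL2 overexpression library is the highest for all 10 genes, from 0.891 FPKM for Lcn2 to 361 FPKM for Ccl2.

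Saa3 encodes an acute phase serum amyloid A made outside the liver, also in stromal cells and macrophages. The gene (ENSMUSG00000040026.8) lies on chromosome 7 from 46711998 to 46715700 on the minus strand in GENCODE M21 (GRCm38). It was at 2.36 FPKM in control cells, 15.6 FPKM upon NELL2 overexpression and 0.525 FPKM upon Fn1 knockdown, from about 30, 205 and 7 fragments. The NELL2 library was the highest and the Fn1 knockdown library the lowest, and the counting intervals of the 3 levels did not overlap. The ratio to control was 6.60 upon NELL2 overexpression (4.49 to 10.1) and 0.222 upon Fn1 knockdown (0.0822 to 0.515). Saa1 and Saa2, the liver forms next to it on chromosome 7, were listed at 0 in all 3 libraries, and Saa4 did not exceed 0.0208 FPKM.

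Lcn2 encodes lipocalin 2, which binds bacterial iron carriers. It was listed at 0 in the control and the Fn1 knockdown library and at 0.891 FPKM upon NELL2 overexpression, from about 19 fragments. A count of 0 allows up to 0.177 FPKM in the control and 0.168 FPKM upon Fn1 knockdown by its interval, below the lower bound of 0.531 FPKM upon NELL2 overexpression. No ratio is given against a value of 0. The gene (ENSMUSG00000026822.14) lies on chromosome 2 from 32384633 to 32388252 on the minus strand.

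Ccl2 encodes a monocyte attractant that signals through CCR2. It was at 222 FPKM in control cells, 361 FPKM upon NELL2 overexpression and 168 FPKM upon Fn1 knockdown. The ratio to control was 1.62 (1.56 to 1.69) and 0.756 (0.722 to 0.792) in these libraries, from at least 3305 fragments in each. Ccl7, whose product shares the receptor CCR2, was at 84.2, 133 and 110 FPKM. It was thus above the control in both treated libraries, with ratios of 1.58 (1.48 to 1.68) and 1.31 (1.22 to 1.40). The genes are neighbours on the plus strand of chromosome 11, Ccl2 (ENSMUSG00000035385.5) from 82035571 to 82037453 and Ccl7 (ENSMUSG00000035373.2) from 82045712 to 82047525, 8.26 kb apart. Their ratios were close upon NELL2 overexpression and lay on opposite sides of 1 upon Fn1 knockdown.

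Ccl5 encodes an attractant of T cells and monocytes. It was at 119 FPKM in control cells, 196 FPKM upon NELL2 overexpression and 77.6 FPKM upon Fn1 knockdown. The ratio to control was 1.65 (1.54 to 1.76) and 0.650 (0.5996 to 0.705). Ccl5 (ENSMUSG00000035042.2) lies on the minus strand of chromosome 11 from 83525778 to 83530518. After Saa3, it had the lowest ratio of the 10 genes upon Fn1 knockdown.

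Ccl20 encodes the ligand of CCR6. It was near the detection limit in the control (0.0570 FPKM, about 1 fragment) and upon Fn1 knockdown (0.134 FPKM, about 3 fragments), and at 1.14 FPKM upon NELL2 overexpression (about 21 fragments). The ratio of 19.9 upon NELL2 overexpression has an interval from 3.27 to 841, so its size is not determined by these data. Ccl20 (ENSMUSG00000026166.14) lies on chromosome 1 from 83116766 to 83119167 on the plus strand.

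Cxcl1 and Cxcl5 encode ligands of CXCR2. Cxcl1 was at 3.62 FPKM in control cells, 8.13 FPKM upon NELL2 overexpression and 2.97 FPKM upon Fn1 knockdown, with ratios of 2.25 (1.72 to 2.97) and 0.821 (0.582 to 1.15). Cxcl5 was at 11.2, 18.9 and 8.74 FPKM, with ratios of 1.68 (1.49 to 1.90) and 0.778 (0.672 to 0.903). For both genes the NELL2 library held the highest value, and for Cxcl1 the counting interval of the ratio upon Fn1 knockdown included 1. Cxcl5 (ENSMUSG00000029371.7, 90759360 to 90761624) and Cxcl1 (ENSMUSG00000029380.11, 90891241 to 90893115) lie on the plus strand of chromosome 5.

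Cxcl10 encodes an interferon-induced ligand of CXCR3. It was at 46.7 FPKM in control cells, 102 FPKM upon NELL2 overexpression and 36.4 FPKM upon Fn1 knockdown. The ratio to control was 2.19 (2.04 to 2.35) and 0.780 (0.715 to 0.850). Cxcl10 (ENSMUSG00000034855.13) lies on the minus strand of chromosome 5 from 92346638 to 92348889. Its exons overlap those of Art3 on the other strand, and strand use in the authors' counting is not given, so reads of these genes cannot be told apart. No exon of the other 9 genes overlaps an exon of another gene.

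Il6 encodes interleukin 6, which drives the acute phase response through the receptor chain encoded by Il6st. It was at 3.24, 4.15 and 3.40 FPKM in the libraries of control, NELL2-overexpressing and Fn1-depleted cells. The ratios were 1.28 (0.874 to 1.92) and 1.05 (0.711 to 1.61), and both intervals include 1. Il6 (ENSMUSG00000025746.11) lies on chromosome 5 from 30013114 to 30019981 on the plus strand.

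**Figure D2:**
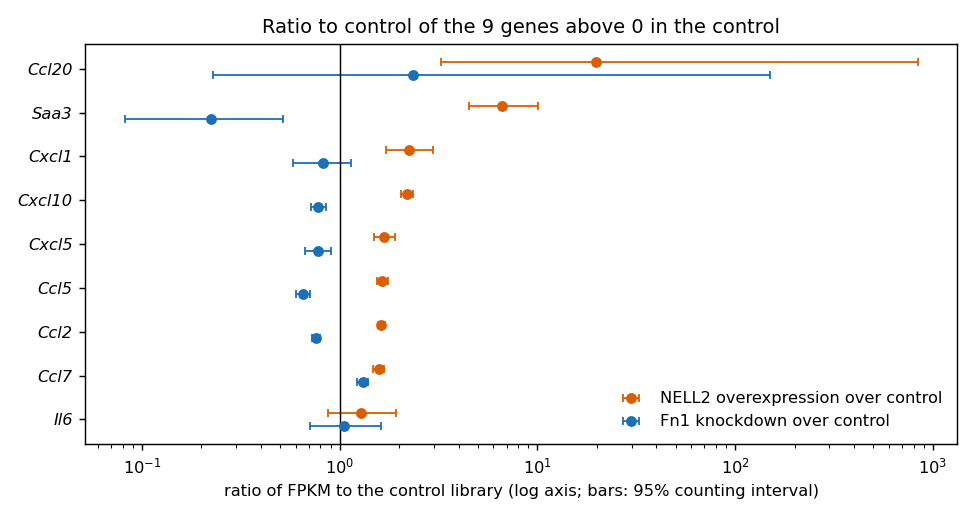
Ratio of FPKM to the control library on a log axis for the 9 genes above 0 in the control, 1 row per gene, where points stand for NELL2 overexpression and Fn1 knockdown and bars for 95% counting intervals. Upon NELL2 overexpression, by which the genes were chosen, the ratios run from 1.28 (Il6) to 19.9 (Ccl20), and upon Fn1 knockdown from 0.222 (Saa3) to 2.36 (Ccl20), where Ccl20 has the widest intervals.

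To place these values among all genes, a gene was called if its log2(FPKM + 1) lay at least 1 from that of the control, which is 2-fold on this scale, and at least 1 of the compared libraries held 1 FPKM or above. On this scale ratios of weakly expressed genes are understated. With NELL2 overexpression, 9 of the 10 genes reached 1 FPKM, Ccl20 through the NELL2 library alone, and Lcn2 did not. Called higher were 3 genes, Saa3 (log2 ratio 2.30), Cxcl10 (1.11) and Ccl20 (1.02), and none was called lower, whereas 0.374% of 12572 genes were called higher and 0.278% lower. Cxcl1, at 0.98, was just short of the 2-fold call. With a 1.5-fold cutoff 8 of the 10 were called higher, against 1.54% of all genes (1.05% lower). Since the genes were chosen by this comparison, nothing is read from these shares. The median log2 ratio of the 10 genes, including Lcn2 that did not reach 1 FPKM, was 0.82, beside 0.0072 over all 12572 genes tested. Saa3 ranked 8 from the top of these, Cxcl10 36, Ccl20 46 and Cxcl1 48, and Ccl5, Cxcl5, Ccl2 and Ccl7 ranked between 115 and 146. Il6 ranked 892.

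The Fn1 knockdown library was set against the same control library, so the comparisons are not independent. Of the 10 genes, 8 reached 1 FPKM in either library. Saa3 was called lower (log2 ratio -1.14, and -0.41 with a pseudocount of 5 FPKM, where it is not called, nor is it with a filter of 5 FPKM) and none was called higher, whereas 0.549% of 12574 genes were called lower and 0.684% higher. With a 1.5-fold cutoff, Saa3 and Ccl5 (-0.61) were called lower, against 3.32% of all genes (2.92% higher). The log2 ratio was below 0 for 6 genes, above 0 for Ccl7 (0.38), Ccl20 (0.10) and Il6 (0.054), and 0 for Lcn2. The median of the 10 genes, including Ccl20 and Lcn2 that did not reach 1 FPKM, was -0.27. It was -0.0028 over the 12574 genes, all of which reached 1 FPKM in either library. From high to low, 6 of the 10 genes had the order NELL2 overexpression, control, Fn1 knockdown. The choice of genes as higher upon NELL2 overexpression fixed part of this order. Of the 12733 genes with at least 1 FPKM in some library, 31.8% were highest upon NELL2 overexpression. The 20.2% with the full order lie within these 31.8%. All 10 genes were highest upon NELL2 overexpression, so 20.2% of all genes is too low a background for 6 of 10. Nothing is read from this order.

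**Figure D3:**
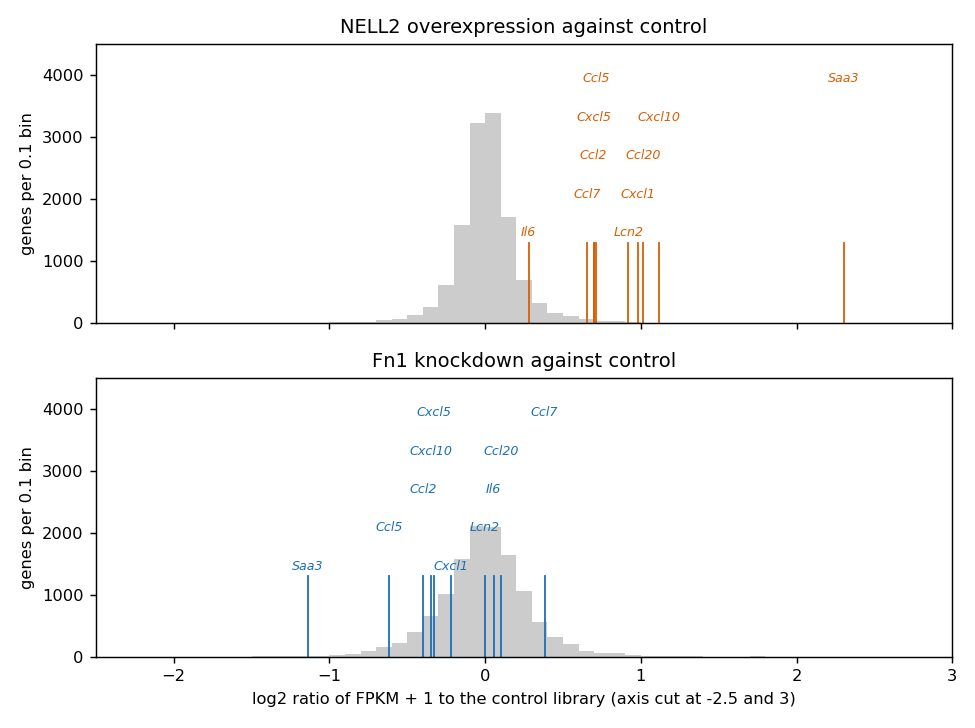
Number of genes per 0.1 bin of the log2 ratio of FPKM + 1 to the control (grey bars) upon NELL2 overexpression (upper panel) and Fn1 knockdown (lower panel), with a line for each of the 10 genes. With NELL2 overexpression the lines run from 0.28 (Il6) to 2.30 (Saa3), and upon Fn1 knockdown from -1.14 (Saa3) to 0.38 (Ccl7).

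The ratio of the NELL2 overexpression library to the Fn1 knockdown library is given as a description, since the genes were chosen as high in the former and no share over all genes was computed for it. It was 29.7 for Saa3 (14.2 to 75.2) and 8.45 for Ccl20 (2.13 to 37.3). Among the chemokines with more fragments it was 2.81 for Cxcl10 (2.61 to 3.03), 2.74 for Cxcl1 (2.08 to 3.70), 2.53 for Ccl5 (2.35 to 2.73), 2.16 for Cxcl5 (1.89 to 2.47), 2.15 for Ccl2 (2.06 to 2.24) and 1.21 for Ccl7 (1.14 to 1.28). The interval for Il6, at 1.22 (0.828 to 1.77), included 1. Ccl7 had the lowest of these ratios, but its interval lies within that of Il6, so the order of Ccl7 and Il6 is not resolved.

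The other chemokine genes were mostly weak. Of 18 further CC chemokine genes, 5 reached 1 FPKM in any library, and none was called in either comparison. Their highest value was 3.56 FPKM, of Ccl8 upon NELL2 overexpression (2.94 FPKM in the control). Of 14 further CXC, CX3C and XC chemokine genes, 6 reached 1 FPKM and none was called. Cxcl14 was the most abundant of these, at 38.7, 45.6 and 26.0 FPKM in the libraries of control, NELL2-overexpressing and Fn1-depleted cells. The stromal niche chemokine gene Cxcl12 was at 7.40, 9.44 and 10.7 FPKM, and Cxcl9, the interferon-induced neighbour of Cxcl10, was at 2.11, 3.38 and 0.977 FPKM.

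Most chemokine genes next to those examined on the chromosomes were under 1 FPKM, where log2(FPKM + 1) understates ratios, and since the examined genes were chosen as high in the NELL2 library, the values are given side by side with no comparison. On chromosome 5, Cxcl5 and Cxcl1 are separated by Ppbp, Pf4, Cxcl3 and Cxcl15, and Cxcl2 follows Cxcl1. With NELL2 overexpression the log2 ratios were 0.70 for Cxcl5 and 0.98 for Cxcl1, and 0.10 for Ppbp, 0.24 for Pf4, 0.28 for Cxcl3 and 0.081 for Cxcl2, while Cxcl15 was listed at 0. Of these neighbours only Ppbp reached 1 FPKM. On chromosome 11, Ccl11, Ccl12 and Ccl8, which follow Ccl7, had log2 ratios of 0.31, 0.51 and 0.21, and Ccl9, Ccl6, Ccl3 and Ccl4, which follow Ccl5, had 0.054, -0.011, -0.050 and 0.23. Cxcl9 and Cxcl11, on either side of Cxcl10, had 0.49 and 0.32. Ccl12 was listed at 0 in the control.

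**Figure D4:**
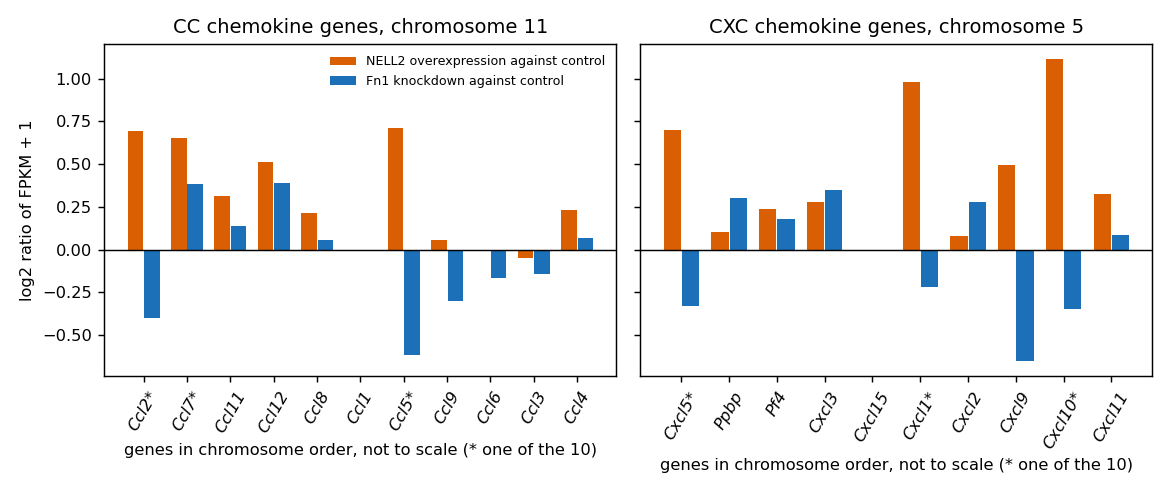
Log2 ratio of FPKM + 1 to the control for CC chemokine genes of chromosome 11 (left) and CXC chemokine genes of chromosome 5 (right), in chromosome order and not to scale, with bars for NELL2 overexpression and Fn1 knockdown and asterisks at the genes examined here. Ccl2 and its neighbour Ccl7 have ratios of 0.70 and 0.65 upon NELL2 overexpression, and of -0.40 and 0.38 upon Fn1 knockdown.

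Several receptors for these chemokines were at or near 0. Ccr2, Ccr6, Cxcr2 and Cxcr3, the receptor genes for CCL2 and CCL7, CCL20, CXCL1 and CXCL5, and CXCL10, were listed at 0 in all 3 libraries. Ccr1 did not exceed 0.207 FPKM. Of 23 chemokine receptor genes, 3 reached 1 FPKM and none was called. The scavenging receptor gene Ackr3 was highest, at 11.6, 12.9 and 10.5 FPKM in the libraries of control, NELL2-overexpressing and Fn1-depleted cells. Cxcr6 was at 1.77, 1.68 and 2.22 FPKM, and Ackr4, another scavenging receptor gene, at 3.54, 2.73 and 1.86 FPKM.

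Among 30 further acute phase genes, 6 reached 1 FPKM and none was called. All 6 were above the control upon NELL2 overexpression and 3 were above it upon Fn1 knockdown, with median log2 ratios of 0.48 and 0.029. Over all genes, 52.3% and 49.5% were above the control in these comparisons, which is the background for such counts in this and the other lists. Cp, the gene of the copper carrier ceruloplasmin, was at 12.0, 21.5 and 10.7 FPKM, and the complement factor gene Cfb at 2.35, 3.96 and 1.94 FPKM. The pentraxin gene Ptx3 was at 105, 138 and 141 FPKM and the metallothionein gene Mt2 at 60.3, 90.1 and 103 FPKM, so that both were above the control in both treated libraries.

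In the interleukin 6 family, 14 of 19 further genes reached 1 FPKM and none was called, with median log2 ratios of 0.062 upon NELL2 overexpression and 0.056 upon Fn1 knockdown. The receptor genes were present, Il6st at 34.2, 36.8 and 38.7 FPKM and Il6ra at 1.44, 1.58 and 1.77 FPKM in the libraries of control, NELL2-overexpressing and Fn1-depleted cells. Lif, a related cytokine gene, was at 6.99, 11.8 and 7.40 FPKM. Clcf1, another, was at 6.51, 3.21 and 3.11 FPKM. Socs3, the feedback inhibitor of this pathway, was at 10.9, 14.4 and 14.8 FPKM.

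Of 40 inflammatory cytokine and NF-kB target genes, 29 reached 1 FPKM. With NELL2 overexpression 27 of the 29 were above the control, with a median log2 ratio of 0.18, and 1 was called higher, against 0.374% of all genes. It was Mmp3, a matrix-degrading enzyme gene, at 3.22 FPKM in control cells, 8.99 FPKM upon NELL2 overexpression and 3.55 FPKM upon Fn1 knockdown. The NF-kB inhibitor gene Nfkbia was at 21.1, 30.4 and 18.4 FPKM and Nfkbiz, which encodes a nuclear cofactor of NF-kB needed for Lcn2 and Il6 induction in other cells, at 5.06, 9.21 and 6.42 FPKM. Zc3h12a, whose product degrades inflammatory transcripts including that of Il6, was at 4.25, 7.10 and 3.71 FPKM. After Fn1 knockdown 18 of the 29 were above the control, with a median of 0.041, and none was called. The cytokine genes that commonly start such a response were weak. Il1a was at 0.00598, 0.152 and 0.105 FPKM and Il1b at 0, 0.153 and 0.0305 FPKM in the libraries of control, NELL2-overexpressing and Fn1-depleted cells. Tnf was at 0.186, 0.0513 and 0.199 FPKM. These values are near 0 and their fragments were not estimated, so nothing is read from their order over the libraries. The part of these cytokines in the values of the 10 genes was not tested.

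Sensors were expressed in all libraries. Of 31 sensor and cytokine receptor genes, 24 reached 1 FPKM and none was called, with median log2 ratios of 0.13 upon NELL2 overexpression and 0.084 upon Fn1 knockdown. The endotoxin receptor gene Tlr4 was at 4.15, 4.37 and 3.74 FPKM, Il1r1 at 5.99, 6.78 and 5.17 FPKM, and the RNA sensor gene Ddx58 at 88.2, 113 and 91.9 FPKM in the libraries of control, NELL2-overexpressing and Fn1-depleted cells. Of 25 interferon markers, which share their inducer with Cxcl10, 24 reached 1 FPKM and none was called. Upon NELL2 overexpression 22 of the 24 were above the control, with a median of 0.37, and upon Fn1 knockdown 17 were, with a median of 0.14, where Cxcl10 was at -0.35. Ifit3 was already at 413 FPKM and Isg15 at 660 FPKM in control cells, and the interferon gene Ifnb1 did not exceed 0.250 FPKM in any library.

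**Figure D5:**
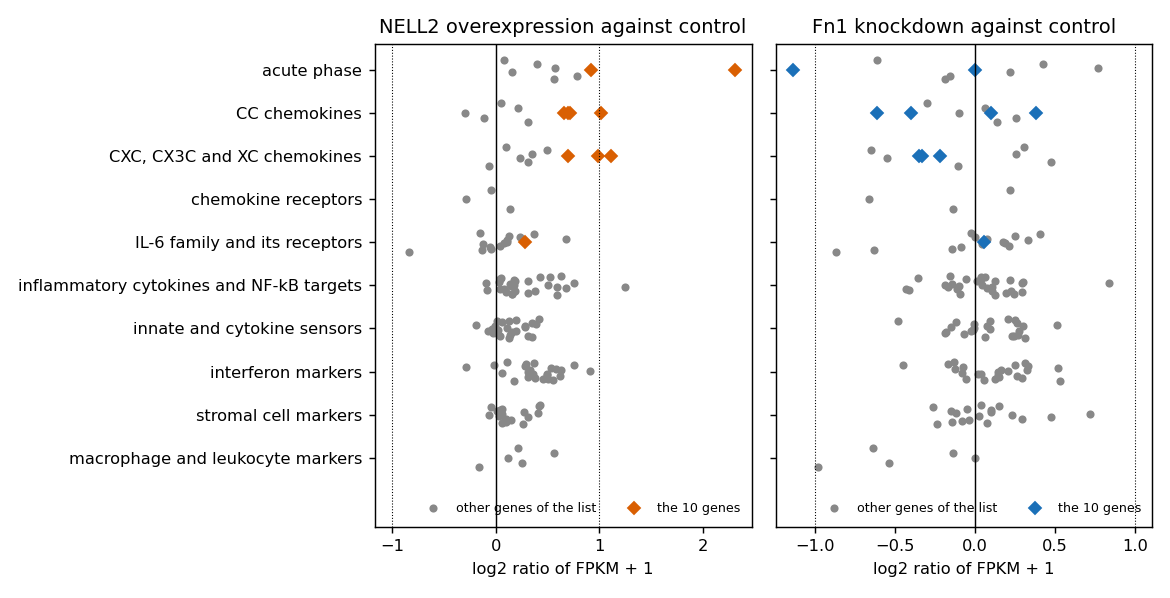
Log2 ratio of FPKM + 1 to the control upon NELL2 overexpression (left) and Fn1 knockdown (right) for the 10 genes (diamonds, in the row of their list) and for other genes of each list with at least 1 FPKM in some library (grey points), with dotted lines at 2-fold. Mmp3, at 1.24 upon NELL2 overexpression, is the only grey point past 2-fold in either panel.

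With a pseudocount of 1 FPKM, no gene shared the pattern of Saa3 closely. Over the 12733 genes with at least 1 FPKM in some library, likeness was measured as the distance between pairs of log2 ratios, NELL2 overexpression and Fn1 knockdown against control, which rests on 3 libraries. The nearest genes were Gm20634, Gm43766, Chpf2, Mir3101 and Mir8112, at distances of 1.15 to 1.32 with a pseudocount of 1 FPKM, and none of them was below the control by more than 0.17 on the log2 scale upon Fn1 knockdown. All but Chpf2 were at 0.0909 FPKM or less in the control, so the pseudocount sets their ratios, which with a pseudocount of 0.1 FPKM were between 3.84 and 5.10 upon NELL2 overexpression, beside 2.67 for Saa3. Chpf2, the most abundant, was at 11.5, 36.6 and 10.1 FPKM. With a pseudocount of 5 FPKM its log2 ratios were 1.34 upon NELL2 overexpression and -0.13 upon Fn1 knockdown. Those of Saa3 were then 1.48 and -0.41, so Chpf2 lay nearer to Saa3 in that setting. For Lcn2 the nearest genes were Slpi, Evi2a, Tnpo1, Usf3 and Gm13966, at distances of 0.069 to 0.14. Since Lcn2 was listed at 0 in the control, its log2 ratio of 0.92 is set by the pseudocount, and this likeness does not hold with a pseudocount of 0.1 FPKM, where Lcn2 is at 3.31 and these genes are between 0.87 and 1.92 upon NELL2 overexpression. Slpi, which encodes a secreted inhibitor of leukocyte proteases, was at 1.21, 2.98 and 1.20 FPKM.

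The stromal label was checked against 18 markers, all of which reached 1 FPKM, with Col1a1 at 1494, 1601 and 1352 FPKM. Macrophage and leukocyte markers were weak. Of 14 such genes, 5 reached 1 FPKM, Ptprc did not exceed 0.0633 FPKM and Aif1 was listed at 0. Their summed level was 22.6 FPKM in control cells, 25.9 FPKM upon NELL2 overexpression and 12.6 FPKM upon Fn1 knockdown, and Lyz2 (11.8, 13.9 and 7.22 FPKM) and Cd68 (4.08, 3.54 and 1.57 FPKM) made up most of it. This sum had the same order over the libraries as Saa3, Ccl2, Ccl5, Cxcl1, Cxcl5 and Cxcl10, and its part in their values was not tested. Of the 12733 genes with at least 1 FPKM in some library, 20.2% had this order. Ccl7, Ccl20, Il6 and Lcn2 did not have it. Nor did the markers Cd68, Tyrobp, Coro1a, Laptm5 and Mrc1, which were highest in the control. In bulk RNA, fewer cells of a type and less RNA per cell cannot be told apart. Neutrophils of bone marrow are rich in Lcn2. Of 10 neutrophil markers 7 were listed at 0 in all 3 libraries, among them S100a8, S100a9, Ly6g, Elane and Ngp. Camp, Mpo and Ltf were at 0.111, 0.0659 and 0.0307 FPKM upon NELL2 overexpression. They were listed at 0 in the other libraries, as was Lcn2. These values are near 0, and the fragments of these markers were not estimated. The summed level of these markers was 0, 0.208 and 0 FPKM, and their part in the value of Lcn2 was not tested. Endothelial markers summed to 4.12, 5.79 and 3.42 FPKM and epithelial markers to 2.59, 1.82 and 3.15 FPKM in the libraries of control, NELL2-overexpressing and Fn1-depleted cells.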

How the data were processed

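RNA of 3 groups of ST2 cells, 1 library in each, was enriched for polyadenylated transcripts and sequenced as 150 bp paired ends by the authors, who mapped the reads with HISAT2 to mouse transcripts (GRCm38, per the labels). The deposited values are FPKM per gene name. The program that gave FPKM, the annotation and the strand setting are not given in the sources used here, and neither is whether the DESeq normalization that the authors name was applied to them.

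Values were compared as log2(FPKM + 1) over all rows, with a call at a 2-fold difference and 1 FPKM or more in either library. No p-value was computed, since each group has 1 library. The depth per library (23000000, 23700000 and 24200000 fragments) was estimated as 1 fragment per most frequent small value of FPKM times length, over genes with 1 transcript of at least 600 bases. Fragments per gene are this depth times FPKM and the shortest coding transcript in GENCODE M21, and are approximate. The computation of calls and depth was tested on simulated data.

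The 10 genes and all gene lists were chosen with earlier results of these data known. The 10 genes were left out of the lists, and so was Itgam, which stood on 2 rows. Genes named are the 10, Nell2 and Fn1, list genes with large log2 ratios, defining markers, receptors or chromosome neighbours of the 10, and the 5 genes nearest to Saa3 and to Lcn2, and further list genes were named for their role or abundance after their values were seen. Python 3.11.15, numpy 2.4.6, pandas 2.3.3, scipy 1.17.1 and matplotlib 3.10.9 were used. Alternatives were other pseudocounts, filters and cutoffs and median-of-ratios scaling.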

Additional observations from a re-analysis of the deposited data

How the results depend on the processing

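Median-of-ratios scaling and removal of the filter moved no count of called genes, and the scaling changed neither median by 0.1; its factors lay between 0.993 and 1.01. The number of the 10 genes called higher with NELL2 overexpression was 3 as reported, 8 with a 1.5-fold cutoff, 1 with a 4-fold cutoff and 5 with a pseudocount and filter of 0.1 FPKM, a setting chosen after seeing the data that added Lcn2 and Cxcl1. It was 4 with a pseudocount of 0.1 FPKM alone, and 2 with a pseudocount of 5 FPKM or a filter of 5 FPKM, which lost Ccl20. The median log2 ratio of the 10 genes was 0.94 with a pseudocount of 0.1 FPKM and 0.62 with one of 5 FPKM. After Fn1 knockdown, the single call lower, Saa3, was lost with a pseudocount of 5 FPKM, a filter of 5 FPKM or a 4-fold cutoff (0 genes), and became 2 genes with a 1.5-fold cutoff. None of the 10 genes changed direction in any setting.

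For the other genes of the lists with NELL2 overexpression, the 1 gene called higher became 2 with a pseudocount of 0.1 FPKM, 0 with one of 5 FPKM, 11 with a 1.5-fold cutoff, 0 with a 4-fold cutoff and 11 with a pseudocount and filter of 0.1 FPKM, and the 0 genes called lower became 1 with the 1.5-fold cutoff and 1 with that last setting. After Fn1 knockdown, the 0 called higher became 2 with the 1.5-fold cutoff and 3 with the pseudocount and filter of 0.1 FPKM, and the 0 called lower became 4 with a pseudocount of 0.1 FPKM, 5 with the 1.5-fold cutoff and 5 with the pseudocount and filter of 0.1 FPKM. With the 1.5-fold cutoff these are counts among 110 list genes tested with NELL2 overexpression and 109 after Fn1 knockdown. Over all genes, that cutoff called 1.54% higher and 1.05% lower with NELL2 overexpression. After Fn1 knockdown it called 2.92% higher and 3.32% lower. Since the lists were chosen with earlier results known, nothing is read from these counts. Weak genes (Lcn2, Ccl20, and Saa3 after Fn1 knockdown) rest on few fragments. No paired analysis was possible because no group held more than 1 library, which also meant that none could be left out.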
